A study of Mus musculus with 8 samples.

Results

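The genes described here are 40 that encode the contractile, calcium-handling and energy proteins of skeletal muscle fibres, followed through arrays of mouse inguinal white adipose tissue. They were chosen by gene symbol, and each was read from the array's probe sets that the platform annotation assigns to a single gene. Of the 40 symbols 39 were matched, by 60 probe sets, and Cox7a1l was not matched. They are 39 of the 18193 genes measured. Where a gene had several probe sets, the one with the highest mean over all 8 arrays gave its value.

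The study compared inguinal white adipose tissue, the subcutaneous fat of the groin, between LPA4-KO mice and wild-type (WT) mice, with 4 arrays of each genotype. LPA4-KO mice (KO) lack lysophosphatidic acid receptor 4 and are hemizygous for the deleted X-linked gene (Lpar4 -/Y). All were male littermates on the C57BL/6 background, aged 12 weeks and fed standard chow. The labels name no driver that would limit the deletion to a cell type, and each array is labelled as a biological replicate numbered 1 to 4 within its genotype. The labels do not say what a number shares. Total RNA of the snap-frozen tissue, 100 ng a sample, was labelled for a 3' expression array, and the deposited values are log2 signals, so that a difference of 1 is a doubling of signal.

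Skeletal muscle fibres are classed by the myosin heavy chain they carry. Fast fibres use the products of Myh1, Myh2 and Myh4, which lie side by side in 1 gene cluster, and slow fibres use that of Myh7; fast and slow fibres also have their own light chains, troponins and calsequestrins. White fat has none of these filaments as part of its adipocytes. The inguinal depot lies between the skin and the muscles of the abdominal wall and thigh, and its vessels hold smooth muscle, which has its own actin and myosin. These are facts of anatomy and cell biology, not results of these arrays.

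The promoters of the genes whose values the results turn on are shown first: the 3 fast myosin heavy chains, the slow chain Myh7, the fast light chain Mylpf and the creatine kinase Ckm. The sequences are RefSeq windows of 300 bases around the annotated start, build GRCm38.p6. In that build they lie at chr11:67199852-67200151 for Myh1, chr11:67237562-67237861 for Myh4, chr11:67170777-67171076 for Myh2, chr7:127211358-127211657 for Mylpf and chr7:19410844-19411143 for Ckm, all on the plus strand, and at chr14:54994577-54994876 on the minus strand for Myh7. Capitals mark matches, on either strand, to 5 motifs: the E-box CAGCTG, the letters TATAAA, the MCAT element CATTCC, and the MEF2 and CArG motifs.
Myh1: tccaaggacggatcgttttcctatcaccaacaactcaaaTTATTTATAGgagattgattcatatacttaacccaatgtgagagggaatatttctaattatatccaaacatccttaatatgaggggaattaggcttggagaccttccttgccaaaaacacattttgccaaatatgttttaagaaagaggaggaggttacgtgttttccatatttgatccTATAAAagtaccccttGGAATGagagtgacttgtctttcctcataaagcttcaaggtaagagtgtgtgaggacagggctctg
Myh4: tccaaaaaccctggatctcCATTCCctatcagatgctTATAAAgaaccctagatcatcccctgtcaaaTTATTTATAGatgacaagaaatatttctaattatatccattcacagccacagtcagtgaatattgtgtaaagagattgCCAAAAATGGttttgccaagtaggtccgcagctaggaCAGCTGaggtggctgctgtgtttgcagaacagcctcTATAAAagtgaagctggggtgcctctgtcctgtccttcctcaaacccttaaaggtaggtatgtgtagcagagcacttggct
Myh2: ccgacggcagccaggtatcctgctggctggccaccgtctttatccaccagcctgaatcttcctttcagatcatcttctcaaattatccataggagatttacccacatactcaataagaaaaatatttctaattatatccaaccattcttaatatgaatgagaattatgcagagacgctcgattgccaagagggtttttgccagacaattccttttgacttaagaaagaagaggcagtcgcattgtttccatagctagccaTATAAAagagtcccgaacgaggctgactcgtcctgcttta
Myh7: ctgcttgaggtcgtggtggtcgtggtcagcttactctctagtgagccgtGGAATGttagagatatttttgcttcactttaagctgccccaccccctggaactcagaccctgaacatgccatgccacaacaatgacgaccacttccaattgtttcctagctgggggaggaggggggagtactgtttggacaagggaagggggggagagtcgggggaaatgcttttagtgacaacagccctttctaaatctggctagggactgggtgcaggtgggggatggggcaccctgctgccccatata
Mylpf: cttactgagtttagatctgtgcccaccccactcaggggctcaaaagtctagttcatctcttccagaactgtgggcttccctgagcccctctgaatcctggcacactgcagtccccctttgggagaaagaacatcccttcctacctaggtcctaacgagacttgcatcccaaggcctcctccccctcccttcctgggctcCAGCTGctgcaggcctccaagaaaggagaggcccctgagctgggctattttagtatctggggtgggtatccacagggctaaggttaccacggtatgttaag
Ckm: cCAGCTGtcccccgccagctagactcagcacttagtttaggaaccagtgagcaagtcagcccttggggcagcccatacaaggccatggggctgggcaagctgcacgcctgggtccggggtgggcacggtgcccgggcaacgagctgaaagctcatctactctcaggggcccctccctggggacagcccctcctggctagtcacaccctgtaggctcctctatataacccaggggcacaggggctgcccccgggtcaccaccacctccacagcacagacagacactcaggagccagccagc

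Of the 39 measured members 30 had such a window. The E-box CAGCTG, the form bound by the myogenic regulators, was in 17 of the 30 (56.7%), against 18.3% of all 27025 genes with a window. The MEF2 motif was in 7 (23.3%, against 3.70% of all genes), the MCAT element in 12 (40%, against 16.6%), TATAAA in 7 (23.3%, against 15.7%) and the CArG motif in 3 (10%, against 1.81%). Among the windows of fast fibre genes, 5 of 10 held CAGCTG and 3 held the MEF2 motif; among those of slow fibre genes, 4 of 9 held CAGCTG and 2 held the MEF2 motif. In the Myh1 and the Myh4 window the MEF2 match overlaps a TATAAA match read on the other strand, and a further TATAAA lies 32 bases before the annotated start of Myh1 and 31 before that of Myh4. The Myh2 window has its only match, TATAAA, after the annotated start, and the Myh7 window has 1 MCAT match alone. A match is a description of the letters in the window.

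The 8 arrays had medians of 6.73 to 6.74 on the log2 scale. Most deposited values hardly moved: the SD over the 8 arrays was at least 0.01 in 28.4% of genes (5173), called varying here, and the others are called near constant. Of the 39 members 30 varied. A probe set that is near constant gives no measure of its gene, since 8 members had varying and near-constant probe sets side by side (Ckm, Des, Mb, Mybpc1, Myh1, Myoz1, Tnni2 and Ttn). The targeted gene Lpar4 had 3 probe sets. One was lower in KO (5.74, 5.91, 5.81 and 5.78) than in WT (6.80, 6.98, 6.89 and 7.04), whereas the others were 0.71 and 0.53 higher in KO; where these lie relative to the deleted sequence was not analysed here. The adipocyte markers were bright in all arrays: the mean of 8 adipocyte genes lay between 12.38 and 12.43, and Adipoq, which encodes adiponectin, was at 13.6 to 14.0.

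The arrays parted by replicate number and not by genotype for these genes. In 31 of 39 members all 4 arrays numbered 1 or 2 lay above all 4 arrays numbered 3 or 4, whereas this held for 1.61% of all genes and 2.9% of varying genes. These 31 are the 30 varying members and the near-constant Sln. The difference, numbers 1 and 2 minus numbers 3 and 4, was at least 1 in 24 of 39 members, against 0.225% of genes, and at least 2 in 12 of 39, against 0.0824%. The median of the 39 differences was 1.46, against -3.03e-05 over all genes. Of the 30 genes with the largest such differences on the whole array, 20 were members. This grouping of the numbers was known from earlier results on these genes, so the differences are given as a description with no test. In whole tissue, fewer fibres and less RNA per fibre cannot be told apart.

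**Figure D1:**
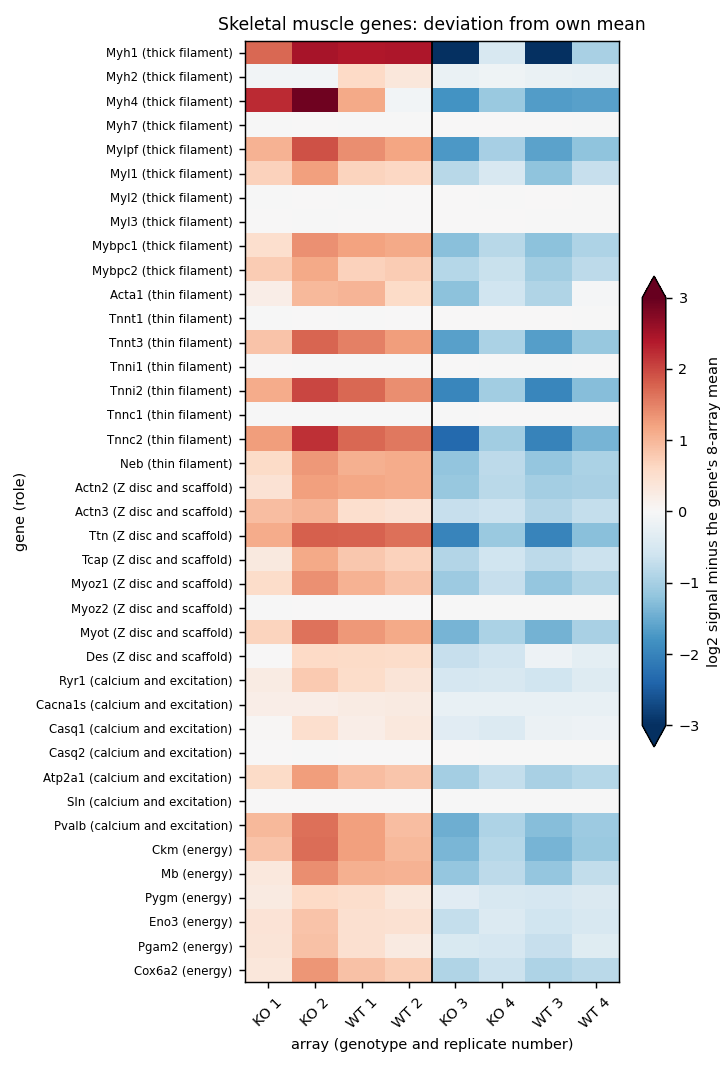
Log2 signal of each of the 39 measured genes in each array, minus the mean of that gene over the 8 arrays, with genes down the page by role and arrays across; the colour scale stops at 3 on either side. The 4 columns left of the line (KO 1, KO 2, WT 1, WT 2) are above the gene's mean for nearly every gene that moves, the 4 columns right of it are below, and 9 genes are blank because they are near constant.

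The thick filament genes held the largest value. Myh1, the fast type IIx myosin heavy chain, stood at 11.12 and 11.89 in KO 1 and KO 2 and 11.80 and 11.83 in WT 1 and WT 2, but at 5.55 and 8.92 in KO 3 and KO 4 and 5.69 and 8.43 in WT 3 and WT 4. Numbers 1 and 2 averaged 11.66 ± 0.36 and numbers 3 and 4 averaged 7.15 ± 1.77 (SD, n = 4 arrays each), a difference of 4.51 or 22.8-fold, and rank 1 of all genes. The number 3 arrays of both genotypes were at the low end and the number 4 arrays stood about midway between them and numbers 1 and 2. Another Myh1 probe set, with the suffix x, gave 4.54, and its last one was near constant. The chosen Myh1 probe set carries the suffix that marks probes shared by transcripts of a gene, and the suffix x marks probes that may match other genes, so signal from the other myosin heavy chains cannot be set apart from that of Myh1.

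Myh4, the fastest heavy chain (type IIb), stood at 9.52 and 10.21 in KO 1 and KO 2 and 8.41 and 7.21 in WT 1 and WT 2, against 5.51 and 6.19 in KO 3 and KO 4 and 5.62 and 5.65 in WT 3 and WT 4. It differed by 3.09 between the number sets, by 4.01 within KO and by 2.17 within WT. Its other probe set kept the order, with 6.49 and 6.83 in KO 1 and KO 2 and 6.18 and 6.07 in WT 1 and WT 2. Myh2, the fast oxidative chain (type IIa), had the smallest difference of the varying members, 0.38: it was 6.23 and 6.23 in KO 1 and KO 2 and 6.92 and 6.66 in WT 1 and WT 2, against 6.11 and 6.19 in KO 3 and KO 4 and 6.12 and 6.08 in WT 3 and WT 4. Only the WT arrays of numbers 1 and 2 stood clear of the rest for Myh2. Myh7, the slow chain shared with the heart, was 6.71 in every array.

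**Figure D2:**
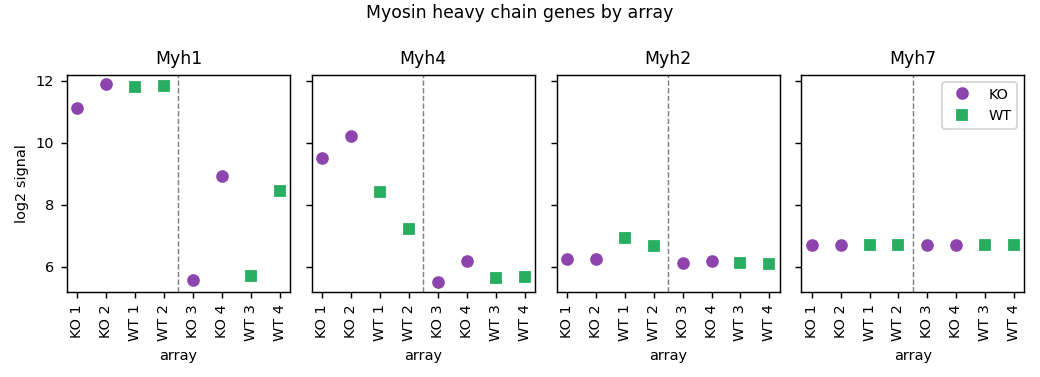
Log2 signal of 4 myosin heavy chain genes in each array (circles KO, squares WT); the dashed line parts numbers 1 and 2 from numbers 3 and 4. Myh1 and Myh4 are high left of the line, with KO above WT for Myh4 there, whereas Myh2 moves little and Myh7 stays at 6.71; heights of different genes are not comparable.

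In the order of the gene cluster on chromosome 11, Myh3 (embryonic) was near constant, Myh2 differed by 0.38, Myh1 by 4.51, the noncoding gene Myhas by 2.73 and Myh4 by 3.09, and Myh8 (perinatal) was near constant. Myhas, which lies between Myh1 and Myh4, was chosen after its values were seen. It stood at 8.60 and 9.39 in KO 1 and KO 2 and 9.29 and 9.36 in WT 1 and WT 2, against 6.03 and 7.01 in KO 3 and KO 4 and 6.06 and 6.59 in WT 3 and WT 4. As for Myh1, its KO and WT arrays overlapped among numbers 1 and 2, and those of Myh4 did not.

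The fast light chains varied, whereas the probe sets of the slow ones were near constant and gave no measure of them. Mylpf, the fast regulatory light chain, was 9.16 and 10.01 in KO 1 and KO 2 and 9.52 and 9.30 in WT 1 and WT 2, against 6.38 and 7.12 in KO 3 and KO 4 and 6.51 and 6.89 in WT 3 and WT 4, a difference of 2.77. Myl1, the fast essential light chain, was 9.27 and 9.79 in KO 1 and KO 2 and 9.24 and 9.19 in WT 1 and WT 2, against 7.75 and 8.08 in KO 3 and KO 4 and 7.37 and 7.88 in WT 3 and WT 4, a difference of 1.61. Both fast chains were higher in every array of numbers 1 and 2 than in any of numbers 3 and 4. The slow chains Myl2 and Myl3, which the heart ventricle also uses, stayed at 6.41 and at 6.57 in all 8 arrays.

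The myosin-binding proteins C brace the thick filament. Mybpc2, the fast form, was 7.49 and 7.86 in KO 1 and KO 2 and 7.42 and 7.49 in WT 1 and WT 2, against 5.88 and 6.07 in KO 3 and KO 4 and 5.70 and 5.94 in WT 3 and WT 4 (difference 1.67). Mybpc1, the slow form, which fast fibres also express, was 7.68 and 8.55 in KO 1 and KO 2 and 8.39 and 8.32 in WT 1 and WT 2, against 5.92 and 6.35 in KO 3 and KO 4 and 5.94 and 6.25 in WT 3 and WT 4 (difference 2.12). Another varying probe set of Mybpc1 differed by 0.33 and overlapped between the number sets, and its last one was near constant. Mybpc1 was the sole varying gene of the 9 on the slow fibre list.

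Of the 8 thin filament genes 5 varied. Acta1, skeletal muscle actin, was 10.79 and 11.58 in KO 1 and KO 2 and 11.61 and 11.17 in WT 1 and WT 2, against 9.36 and 10.01 in KO 3 and KO 4 and 9.70 and 10.55 in WT 3 and WT 4. Its difference, 1.38, was smaller than that of the fast troponins, and the gap between the lowest array of numbers 1 and 2 and the highest of numbers 3 and 4 was 0.24. Actins of other muscles have closely related coding sequences, and signal from them at the Acta1 probe set was not tested. Nebulin, the ruler of the thin filament (Neb), differed by 2.03.

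The troponins give the calcium switch in fast and slow versions. Tnnc2, fast troponin C, was 10.03 and 10.96 in KO 1 and KO 2 and 10.50 and 10.35 in WT 1 and WT 2, against 6.45 and 7.74 in KO 3 and KO 4 and 6.78 and 7.38 in WT 3 and WT 4. Its difference of 3.37 (10.4-fold) ranked 2 of all genes. Tnni2, fast troponin I, was 9.36 and 10.25 in KO 1 and KO 2 and 9.96 and 9.64 in WT 1 and WT 2, against 6.28 and 7.20 in KO 3 and KO 4 and 6.27 and 6.97 in WT 3 and WT 4 (difference 3.12). Tnnt3, fast troponin T, was 8.45 and 9.34 in KO 1 and KO 2 and 9.10 and 8.84 in WT 1 and WT 2, against 5.95 and 6.63 in KO 3 and KO 4 and 5.94 and 6.46 in WT 3 and WT 4 (difference 2.69). The 3 slow troponins were flat at the level of the probe sets: Tnnc1 stayed at 6.92, Tnni1 at 6.43 and Tnnt1 at 6.31 in all 8 arrays.

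Of 8 genes of the Z disc and scaffold 7 varied. Titin (Ttn), the spring that spans the sarcomere, differed by 3.16. Its other probe sets that varied differed by 0.67 to 2.40 in the same direction. Myotilin (Myot) differed by 2.36, alpha-actinin 2 (Actn2) by 1.97, the fast calsarcin Myoz1 by 1.92 and telethonin (Tcap) by 1.46, and the slow calsarcin Myoz2 was near constant at 6.25. Actn3, the alpha-actinin of fast fibres, was 8.0 and 8.09 in KO 1 and KO 2 and 7.56 and 7.51 in WT 1 and WT 2, against 6.38 and 6.45 in KO 3 and KO 4 and 6.18 and 6.36 in WT 3 and WT 4 (difference 1.45). Desmin (Des), an intermediate filament that smooth muscle shares, was 7.62 and 8.22 in KO 1 and KO 2 and 8.19 and 8.16 in WT 1 and WT 2, against 6.93 and 7.06 in KO 3 and KO 4 and 7.47 and 7.32 in WT 3 and WT 4 (difference 0.86).

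The 7 calcium-handling genes had a median difference of 0.54, against 1.64 for the 10 thick filament genes and 1.71 for the 8 thin filament genes. Near-constant genes, which give no measure, enter these medians as differences near 0: 2 of the 7, 3 of the 10 and 3 of the 8. Atp2a1, the fast calcium pump of the sarcoplasmic reticulum, was 7.93 and 8.62 in KO 1 and KO 2 and 8.29 and 8.19 in WT 1 and WT 2, against 6.34 and 6.66 in KO 3 and KO 4 and 6.39 and 6.50 in WT 3 and WT 4 (difference 1.78). Parvalbumin (Pvalb), the calcium buffer of fast fibres, was 8.49 and 9.18 in KO 1 and KO 2 and 8.76 and 8.45 in WT 1 and WT 2, against 6.06 and 6.61 in KO 3 and KO 4 and 6.24 and 6.43 in WT 3 and WT 4 (difference 2.38). Casq1, the calsequestrin of fast fibres, was 7.09 and 7.56 in KO 1 and KO 2 and 7.26 and 7.37 in WT 1 and WT 2, against 6.72 and 6.63 in KO 3 and KO 4 and 6.87 and 6.90 in WT 3 and WT 4 (difference 0.54). These 3 did not overlap between the number sets, and neither did the release channel Ryr1 (0.98) and the voltage sensor Cacna1s (0.45). Casq2, the slow and cardiac calsequestrin, stayed at 6.66 and sarcolipin (Sln), which inhibits the calcium pump, at 6.35, so 5 of 7 varied.

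All 6 measured energy genes varied. Ckm, muscle creatine kinase, was 8.65 and 9.46 in KO 1 and KO 2 and 9.03 and 8.77 in WT 1 and WT 2, against 6.42 and 6.93 in KO 3 and KO 4 and 6.41 and 6.69 in WT 3 and WT 4, a difference of 2.37 (5.16-fold). Myoglobin (Mb), the oxygen store, was 7.63 and 8.73 in KO 1 and KO 2 and 8.39 and 8.36 in WT 1 and WT 2, against 6.16 and 6.55 in KO 3 and KO 4 and 6.17 and 6.60 in WT 3 and WT 4, a difference of 1.91. The muscle subunit Cox6a2 of cytochrome oxidase differed by 1.64, the glycolytic enzymes Eno3 and Pgam2 by 1.10 and 1.01, and glycogen phosphorylase Pygm by 0.87.

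**Figure D3:**
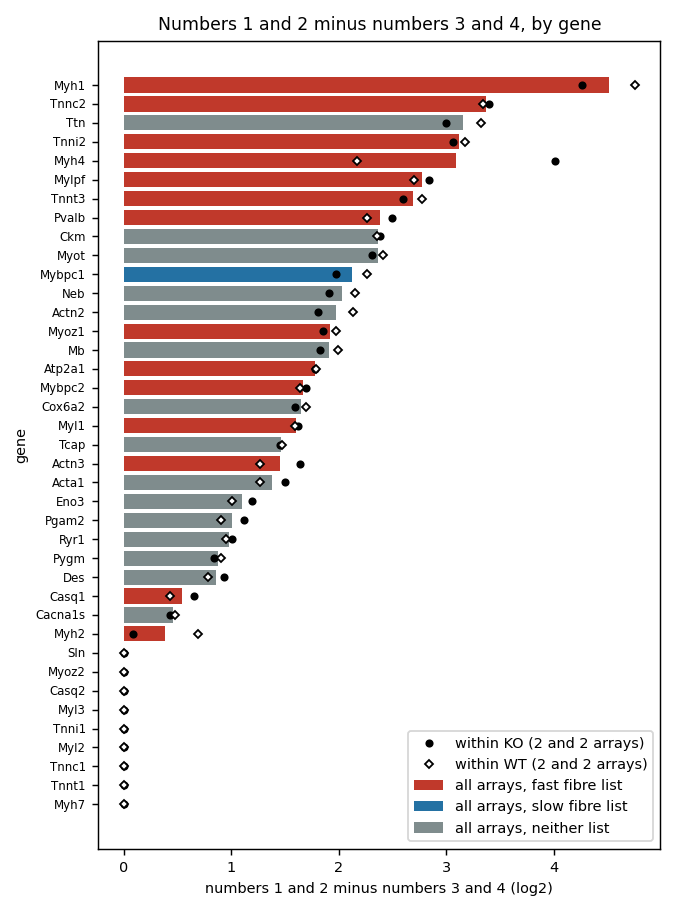
Numbers 1 and 2 minus numbers 3 and 4 for each gene on the log2 scale: bars are the difference of the means of 4 and 4 arrays, coloured by fibre list, filled circles the same within KO and open diamonds within WT (2 and 2 arrays each). Circles and diamonds lie close together for most genes, apart from Myh4 (4.01 within KO, 2.17 within WT) and Myh2 (0.08 within KO, 0.69 within WT), and 9 genes have no visible bar.

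Fast and slow fibre genes differed in what the probe sets recorded. All 14 genes on the fast list varied and lay higher in numbers 1 and 2 without overlap, with differences of 0.38 to 4.51 and a median of 2.15. On the slow list 1 of 9 did so and the median was -6.02e-05. The mean of the fast list was 8.59 and 9.20 in KO 1 and KO 2 and 8.80 and 8.60 in WT 1 and WT 2, against 6.27 and 6.95 in KO 3 and KO 4 and 6.29 and 6.75 in WT 3 and WT 4. The mean of the slow list was 6.66 and 6.76 in KO 1 and KO 2 and 6.74 and 6.73 in WT 1 and WT 2, against 6.47 and 6.51 in KO 3 and KO 4 and 6.47 and 6.50 in WT 3 and WT 4. The fast list thus differed by 2.24 and the slow list by 0.24, the slow figure coming from Mybpc1. With varying members only, the difference between the lists was 0.12 in place of 2.0, because Mybpc1 (2.12) then stood alone for the slow list. Near-constant probe sets leave the level of slow fibre genes unmeasured here.

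Within the number sets the members also moved together. Both number 4 arrays lay above both number 3 arrays in 25 of 39 members, against 12.6% of genes. Among the 30 varying members 23 did so, and the exceptions were Myh2, Actn3, Des, Cacna1s, Casq1, Pygm and Pgam2. The step was largest for Myh1, where KO 4 was 3.36 above KO 3 and WT 4 was 2.74 above WT 3. KO 2 was the highest of all 8 arrays in 28 of 39 members, against 7.65% of genes; among varying members the exceptions were Myh2, Acta1 and Cacna1s. The mean of the 39 members was 7.80 and 8.31 in KO 1 and KO 2 and 8.08 and 7.95 in WT 1 and WT 2, against 6.40 and 6.77 in KO 3 and KO 4 and 6.43 and 6.70 in WT 3 and WT 4. Number 3 was therefore the lowest and number 4 the second lowest in each genotype. Scan or extraction dates were not used here, so a technical batch and a difference between animals or dissections cannot be told apart.

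The rest of the muscle programme was looked at through a list of 48 further skeletal muscle genes, of which 44 were measured and 20 varied. In 21 of the 44, of which 15 varied, numbers 1 and 2 lay above numbers 3 and 4 without overlap. This held for 1.61% of all genes and 2.9% of varying genes. The largest differences were those of Klhl41, a stabiliser of nebulin (2.58), the mitochondrial creatine kinase Ckmt2 (1.80), the M-band protein Myom2 (1.68) and the Z-disc protein Csrp3 (1.63). Klhl41 was 7.27 and 8.21 in KO 1 and KO 2 and 7.85 and 7.73 in WT 1 and WT 2, against 4.95 and 5.46 in KO 3 and KO 4 and 4.93 and 5.41 in WT 3 and WT 4, the same order as the filament genes. Trim63, a ubiquitin ligase of muscle atrophy that is on neither list and was chosen after its values were seen, ranked 6 of all genes with 2.95.

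Myogenic regulators, which switch on muscle genes, were hardly measured by these values. Of 17 listed, 15 were measured and 12 of those were near constant. None of the 3 varying genes parted the number sets, and over the array 2.9% of varying genes had numbers 1 and 2 above without overlap. Among the near-constant regulators Myf6 and Myh8 were higher and Pax3 lower in numbers 1 and 2 without overlap, by less than 0.01 each. The largest differences were those of the transcription factors Mef2c (0.20), Mef2a (0.09) and Mef2d (0.06), which many other cells express, and perinatal Myh8 (0.00). Mef2c was 8.32 and 8.55 in KO 1 and KO 2 and 8.33 and 8.59 in WT 1 and WT 2, against 8.30 and 8.18 in KO 3 and KO 4 and 8.18 and 8.33 in WT 3 and WT 4, so its number sets overlapped.

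Markers of other tissues that a fat sample could hold were read in the same arrays, and 0 of the 31 varying genes on these lists parted the number sets. That count is near the share over the array, since 2.9% of all varying genes had numbers 1 and 2 above without overlap. Of the near-constant genes on these lists Krt10 was higher and Nppa and Mybpc3 were lower in numbers 1 and 2 without overlap, by less than 0.01 each. All 8 heart muscle genes were near constant, the brightest being Myl4 at 7.95 and Mybpc3 at 7.34, and so were all 6 skin genes, led by Krt10 at 7.09 and Lor at 6.98, so these lists measured neither tissue. The mean of 8 smooth muscle genes differed by genotype in place of number: 8.08, 8.16, 8.20 and 8.09 in KO 1 to KO 4, against 8.40, 8.51, 8.55 and 8.39 in WT 1 to WT 4. Its brightest gene Acta2, smooth muscle actin, fell in KO (-1.26 ± 0.11, SE; limma adjusted p = 0.0134), a call that was lost with replicate numbers as a block (adjusted p = 0.0975). Tagln was 0.48 lower without passing (adjusted p = 0.122). The mean of 8 macrophage genes was 9.86, 9.91, 10.01 and 10.04 in KO 1 to KO 4, against 10.26, 9.85, 8.90 and 9.40 in WT 1 to WT 4. It was lowest in WT 3 and WT 4, and its genes, led by Lyz2 and Csf1r, overlapped between the number sets, and KO 3 and KO 4 were not low. The mean of the 39 muscle genes was 8.05 in KO 1 and KO 2 and 6.59 in KO 3 and KO 4. In WT it was 8.01 and 6.56. Among single muscle genes, Tnnc2 differed between the number sets by 3.40 within KO and 3.35 within WT, and Ckm by 2.38 and 2.35. Not all were so alike: Myh4 differed by 4.01 within KO and 2.17 within WT, and Myh2 by 0.08 and 0.69. The part of the macrophage genes in the muscle genes' difference was not tested.

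The varying genes of the remaining lists differed between the number sets by -0.34 to 0.38, with overlap in each. The highest was Lep, which encodes leptin, with 11.42 and 11.54 in KO 1 and KO 2 and 11.85 and 11.91 in WT 1 and WT 2, against 11.26 and 10.98 in KO 3 and KO 4 and 11.44 and 11.51 in WT 3 and WT 4. The lowest was Cidea of the brown adipocyte list, and Ppara of that list differed by 0.04. Adipoq differed by 0.03. Of the 3 varying tendon genes Tnmd differed by 0.35, Thbs4 by -0.22 and Fmod by -0.01. The lymph node genes Cd2 and Cd3d differed by 0.11 and 0.05, the nerve genes Pmp22, Mbp and S100b by 0.15, 0.06 and -0.08, and Alas2 of the red cell list by -0.19. Lep, Tnmd, Thbs4, Cd2 and S100b were named after their values were seen. The bright genes Fabp4, Scx, Cd3e and Hba-a1 were near constant. The mean of the nerve list was 7.79 to 8.19 in KO and 8.24 to 8.69 in WT.

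**Figure D4:**
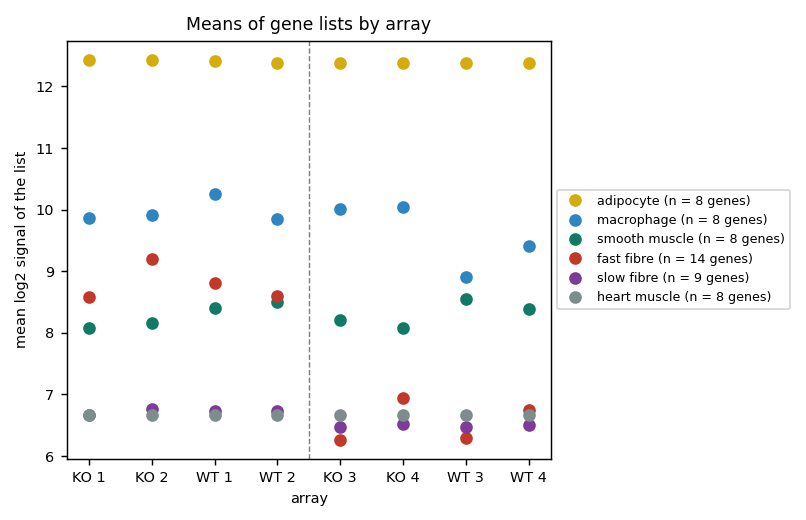
Mean log2 signal of 6 gene lists in each array, with n giving the measured genes of a list; the dashed line parts numbers 1 and 2 from numbers 3 and 4. The fast fibre mean is between 8.59 and 9.20 left of the line and between 6.27 and 6.95 right of it, while the adipocyte and smooth muscle means show no such step, the heart list holds near-constant genes alone, and the macrophage mean is low in WT 3 and WT 4.

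Whether the receptor's absence went with a change in these genes was asked first over all arrays. With limma and Benjamini-Hochberg adjustment over all genes, 0 of 39 members passed 0.05, against 4.03% of genes (733). The near-constant Myh7 was the 1 member with an unadjusted p under 0.05, against 22.9% of genes. No member had KO and WT arrays without overlap, against 16.2% of genes. For the 31 members whose number sets did not overlap, the split by number fixed this outcome in advance. It therefore says nothing of genotype for them. The same split enters the spread used in the test over all arrays. The largest difference was that of Myh4, with a mean of 7.85 ± 2.35 in KO and 6.72 ± 1.35 in WT (SD, n = 4; KO minus WT 1.13 ± 1.32, SE; 95% interval -2.06 to 4.32; limma adjusted p = 0.668). Next came Actn3 (0.33 ± 0.58), Des (-0.33 ± 0.36), Acta1 (-0.32 ± 0.62) and Myl1 (0.30 ± 0.66). Each interval held 0 and was wide: that of Ckm ran from -2.19 to 2.47 around 0.14. Among the further muscle genes 1 passed, dystrophin (Dmd), which fell in KO (-0.34 ± 0.06, limma adjusted p = 0.0442) and also has isoforms in other tissues; with replicate numbers as a block its adjusted p was 0.165, and 0 genes of the array passed. The count of 733 genes was 10 without KO 3 and 131 to 253 with another array left out, while that of members stayed at 0.

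Taking numbers 1 and 2 against 3 and 4 as a block gave smaller standard errors, for Ckm 0.22 with the block against 0.96 without it. Then 493 genes passed (2.71%) and again 0 of 39 members, whose lowest limma adjusted p was 0.115. An unadjusted p under 0.05 was found for 2 members, against 23.5% of genes. Ckm differed by 0.14 with an interval of -0.43 to 0.71, Mylpf by 0.12 with -0.55 to 0.78 and Pvalb by 0.12 with -0.42 to 0.65. Actn3 was 0.33 higher in KO with an interval of 0.09 to 0.57 (limma adjusted p = 0.126). With this block the intervals of Ckm, Mylpf and Pvalb lay within 1 of 0 on the log2 scale, while that of Myh1 still ran from -2.49 to 2.36. The number sets were known from earlier results on these same genes. The narrower intervals rest on that choice and set no bound on the genotype difference.

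Within numbers 1 and 2, where the muscle genes were high, 0 of 39 members and 0% of all genes passed, and 4 members had an unadjusted p under 0.05, as did 14.5% of genes. Both KO arrays lay above both WT arrays in 6 of 39 members, against 28.2% of genes, and below in 2, against 22%. Myh4 had the largest difference: 9.52 and 10.21 in KO against 8.41 and 7.21 in WT, 2.05 ± 0.53 (SE; 95% interval 0.63 to 3.47; limma adjusted p = 0.254). Myh2 went the other way, with 6.23 and 6.23 in KO against 6.92 and 6.66 in WT, -0.56 ± 0.09 (interval -0.80 to -0.31; limma adjusted p = 0.199). Actn3 was 0.52 ± 0.08 higher in KO (limma adjusted p = 0.195), and Cacna1s differed by -0.05 (limma adjusted p = 0.195). Myh4 minus Myh2 on the log2 scale was 3.28 and 3.97 in KO 1 and KO 2, against 1.5 and 0.55 in WT 1 and WT 2; this contrast was chosen after the values were seen and is given with no test. Myh1, between them in the cluster, differed by -0.31 with an interval of -4.34 to 3.72, since the shared spread took in the distance between its number 3 and number 4 arrays.

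Within numbers 3 and 4, 0 of 39 members and 0% of genes passed. The near-constant Myl3 was the 1 member with an unadjusted p under 0.05, against 16.1% of genes. KO lay above WT without overlap in 4 of 39 members, against 26.7% of genes, Actn3 being the 1 varying gene among them (0.14, interval -0.06 to 0.35). KO lay below WT in 2, against 22% of genes: Des, with 6.93 and 7.06 in KO and 7.47 and 7.32 in WT (-0.40, interval -0.97 to 0.18), and Casq1 (-0.21, interval -0.66 to 0.23). The smooth muscle mean was lower in KO than in WT in the same arrays, by 0.33 in both number sets, and its part in the value of Des was not tested. The test of whether the genotype difference itself differed between the number sets passed for 0 of 39 members and 0% of genes. The lowest limma adjusted p of a member was 0.804. An unadjusted p under 0.05 was found for 3 members (Myh2, Actn3 and Cacna1s), against 5.89% of genes. For Myh4 the genotype difference differed by 1.84 between the number sets, with an interval of -0.16 to 3.84.

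**Figure D5:**
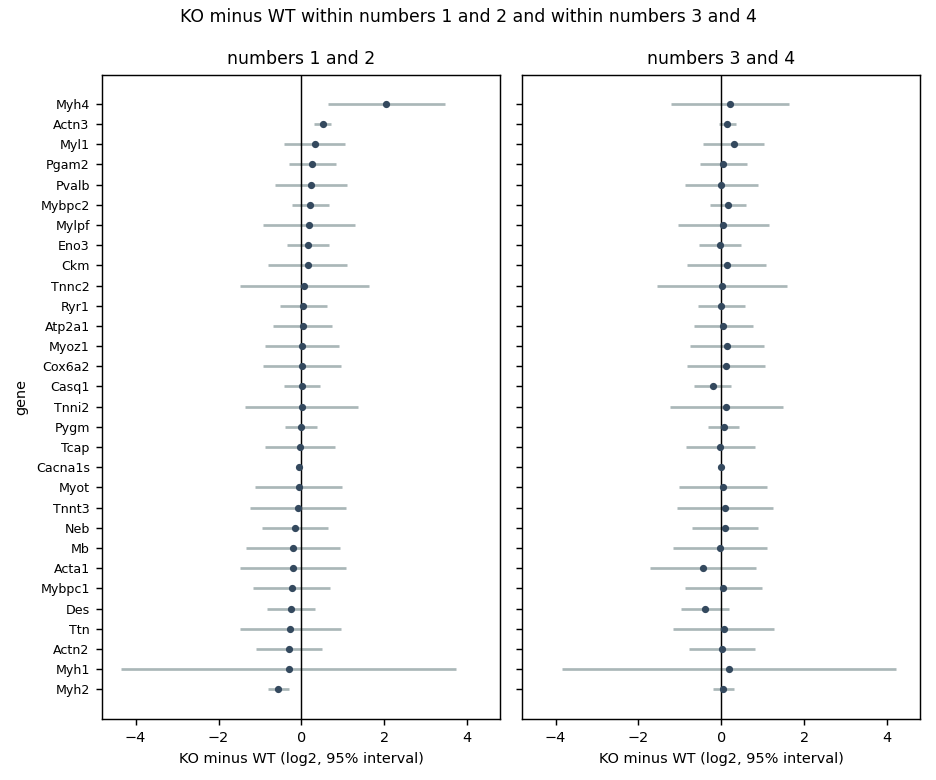
KO minus WT on the log2 scale for the 30 varying genes, within numbers 1 and 2 (left) and within numbers 3 and 4 (right); points are differences of 2 and 2 arrays and bars 95% intervals from limma with the spread shared over all 8 arrays. Myh4 and Actn3 lie above 0 and Myh2 and Cacna1s below 0 on the left with bars that do not reach 0, none passes after adjustment, and all bars on the right cross 0.

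The mean of the 39 members differed between KO and WT by 0.03 over all arrays, 0.04 within numbers 1 and 2 and 0.02 within numbers 3 and 4, against 1.46 between the number sets. With 1 array left out, the value within numbers 1 and 2 ranged from -0.21 without KO 2 to 0.29 without KO 1, so its sign rested on single arrays.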

How the data were processed

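RNA of inguinal fat from 4 LPA4-KO and 4 WT mice was measured on 1 array each. The values the authors deposited are log2 signals of 45101 probe sets. That scale was read from the values, which ran from 4.93 to 14.3; R 2.14.0 is named per the submitters' processing notes, and background correction and normalisation steps are not given in the sources. No detection calls were used.

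The platform annotation names a single gene for 34945 probe sets, several for 932 and none for 9160; 64 are controls. The probe set with the highest mean over the 8 arrays represents a gene. KO minus WT was fitted with the two-sided moderated test of limma 3.58.1 (R 4.3.3; lmFit, eBayes) on all 18193 genes, with Benjamini-Hochberg adjustment over all of them and a threshold of 0.05. Contrasts within numbers 1 and 2 and within numbers 3 and 4 used 4 group means with a shared spread. Where the deposited values hardly move, that spread is tiny, and limma estimated 0.332 prior degrees of freedom, so each gene leans on its own arrays. Their number limits the precision of every value. The p-values rest on the spread between these arrays, in which mice and a technical batch cannot be told apart. Over all arrays, without a block, that spread takes in the difference between the number sets.

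The members and lists were chosen with earlier results of these data known. By the rule for named genes all members may be named, with values in every array for filament pairs and 10 others; of further muscle genes and regulators the 4 with the largest number difference, and of other cell lists the 2 brightest genes. On simulated data with 18193 genes, the KO minus WT test recovered 26% of changes of 0.3, 60% at 0.6, 68% at 1 and 92% at 1.5 on the log2 scale, with 6 false calls. Within numbers 1 and 2 it recovered 34% at 1 and 66% at 1.5, and within numbers 3 and 4 30% and 70%. The changes were placed in varying genes drawn at random, with noise at each gene's spread within genotype and no number sets. These shares do not carry over to members with a wide spread, such as Ckm (SE 0.96 over all arrays) and Mylpf (1.13).

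Deviations of same-numbered KO and WT arrays from their genotype means correlated across genes at 0.315, 0.486, 0.189 and 0.244, above the 0.1 at which numbers are treated as pairs. Differently numbered arrays reached it too: 0.364 for KO 3 with WT 4, 0.266 for KO 4 with WT 3, 0.220 for KO 2 with WT 1 and 0.107 for KO 1 with WT 2. Within numbers 3 and 4 the values therefore do not set same-numbered arrays apart. The main test used no block of numbers, which is among the alternatives. Any pairing comes from the data alone. Without the members and the further muscle genes the same-numbered values were 0.176, 0.294, -0.109 and 0.0896. KO 3 with WT 4 and KO 4 with WT 3 then stood at 0.158 and 0.136, and KO 1 with WT 2 and KO 2 with WT 1 at -0.0702 and -0.119. The alternatives were blocks, gene filters, the probe set rule, quantile normalisation, the variance model and leaving out each array.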

Additional observations from a re-analysis of the deposited data

How the results depend on the processing

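With 4 arrays a genotype, and 2 within a number set, only differences large against the spread of a gene's own arrays could be called. No member passed for KO against WT over all arrays in any of the 17 settings, and the lowest adjusted p of a member over all settings and contrasts was 0.0699. The count of all genes passing was 733; it was 0 with the replicate block (3703 at an unadjusted p under 0.05), 1402 among varying genes and 10 to 253 with 1 array left out, lowest without KO 3. The block changed no call of a member. Varying genes with the replicate block gave 1011, a setting chosen after seeing the data. Within numbers 1 and 2, 12 genes passed after quantile normalisation and 4 with a trend and robust variances, against 0. Within numbers 3 and 4, 30 passed among varying genes and 0 to 1 with 1 array left out, as for the difference between the number sets (0 to 1); none was a member. The members' mean number difference of 1.46 was 1.90 for varying members, 1.98 without dim members and 1.19 with the mean of probe sets, and 31 to 32 members did not overlap with 1 array left out, against 25 to 31 otherwise. The fast minus slow difference of 2.0 was 0.12 for varying members and 1.38 without dim members. The members' KO minus WT mean within numbers 1 and 2 was -0.21 to 0.29 with 1 array left out. With 1 array left out Acta1 (-0.32) ranged from -0.70 to 0.035, above 0 without KO 3, and Myl1 (0.30) ranged from -0.051 to 0.63, below 0 without KO 2 (-0.051) and without WT 3 (-0.047), with adjusted p-values of 0.976 to 0.985 at these 3 values. The cause of these shifts was not tested, apart from the fewer samples or genes that a setting leaves. Of 300 recomputed number differences of single members 0 fell below 0.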

Other observations

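Another group of genes set 1 array apart. The hair follicle genes Krt27, Tchh, Krt25, Krt71 and Krtap8-1, which encode inner root sheath and hair shaft proteins and were chosen after their values were seen, stood at 8.95, 8.55, 8.61, 8.41 and 7.93 in KO 3. In the other 7 arrays Krt27 was 5.77 to 6.10 and Tchh 5.47 to 5.65. KO 3 was also the array with the lowest Myh1 (5.55) and Myh4 (5.51) among the KO arrays. WT 3 stood nearly as low for Myh1 (5.69) and Myh4 (5.62), with Krt27 at 5.77 and Tchh at 5.54. A link between the hair genes and the muscle genes was not tested. The skin genes Krt10 and Lor were near constant in all arrays.

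Of the further muscle genes, Mylk4, a myosin light chain kinase chosen after its values were seen, had the genotype order of Myh4 among numbers 1 and 2, with 7.03 and 6.97 in KO against 6.48 and 6.44 in WT. Apobec2, a muscle protein on neither list, differed by 1.97 between the number sets.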
